A study of Homo sapiens with 10 samples.

Results

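The cytosolic ribosomal protein genes encode the proteins of the ribosome outside mitochondria. They were taken by symbol: RPL or RPS followed by a number, with an optional A or X, together with RPLP0, RPLP1, RPLP2 and RPSA. The table held 77 such genes among 34567, of which 46 encode proteins of the large (60S) subunit and 31 of the small (40S) subunit. RNA-seq libraries came from human glioma lines in which the level of MEOX2, a homeobox transcription factor, had been changed. SNB19 cells received a scramble siRNA (n = 3) or a MEOX2 siRNA (n = 3) with Lipofectamine 3000. U87 cells received an empty vector lentivirus (n = 2) or a MEOX2 lentivirus (n = 2) with polybrene, and stable lines were kept under puromycin. All cells grew in DMEM with fetal bovine serum, and mRNA was selected with poly-T beads. No label says that the libraries of a group came from separate cultures, so the p-values measure the spread between these libraries.

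Each ribosome carries one copy of most of these proteins on a scaffold of ribosomal RNA. The small subunit reads the mRNA, and the large subunit joins the amino acids and passes the chain through an exit tunnel. The mRNAs are short and abundant, and many begin with a C followed by a run of C and T, the terminal oligopyrimidine (TOP) tract through which growth signals such as mTOR control their translation.

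Start-site windows from RefSeq on GRCh38.p14, reaching from 250 bases before to 50 bases after the annotated start, were found for 62 of the 77 members. A C at the first transcribed base, followed without a break by C or T to a run of at least 5 bases, was present in 46 of 62 members (74.2%) and in 1404 of 27305 genes with a window (5.14%). A gene with several annotated starts, as 10 members had, was counted if any of its windows held the feature, and counted by window the shares were 59.7% and 4.07%. The letters CTTTCC, read on the gene strand within 20 bases of the start, were present in 20 of 62 members (32.3%) and in 2.56% of all genes, and these matches can lie within the same C and T run. Searched on both strands over all 300 bases, CTTTCC was in 48.4% of the members and 30.2% of all genes. The members below are shown because the results turn on them. Each run starts 30 bases before the annotated start and ends 20 bases after it, and capitals mark an unbroken stretch of C and T that begins with C at the start. The first 9 have such a stretch and the last 3 do not. RPL11 has another annotated start upstream, in a window at chr1:23691749-23691798 without such a stretch, and the window with the stretch is shown.
RPS6, chr9:19380217-19380266, minus strand: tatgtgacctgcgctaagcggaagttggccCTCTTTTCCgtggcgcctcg
RPS12, chr6:132814539-132814588, plus strand: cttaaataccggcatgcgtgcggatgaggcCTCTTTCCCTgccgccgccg
RPS23, chr5:82278335-82278384, minus strand: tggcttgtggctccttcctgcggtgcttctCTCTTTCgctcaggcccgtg
RPS24, chr10:78033833-78033882, plus strand: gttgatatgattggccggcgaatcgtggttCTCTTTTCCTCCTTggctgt
RPL11, chr1:23691776-23691825, plus strand: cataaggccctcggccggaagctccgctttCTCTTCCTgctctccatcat
RPLP2, chr11:809937-809986, plus strand: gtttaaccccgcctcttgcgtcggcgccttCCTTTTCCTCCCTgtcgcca
RPSA, chr3:39406690-39406739, plus strand: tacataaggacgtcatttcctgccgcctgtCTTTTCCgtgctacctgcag
RPL36A, chrX:101390981-101391030, plus strand: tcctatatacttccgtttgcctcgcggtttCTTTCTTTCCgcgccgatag
RPL41, chr12:56116603-56116652, plus strand: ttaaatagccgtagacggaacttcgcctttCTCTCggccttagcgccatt
RPL4, chr15:66504836-66504885, minus strand: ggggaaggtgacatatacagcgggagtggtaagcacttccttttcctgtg
RPS4X, chrX:72277229-72277278, minus strand: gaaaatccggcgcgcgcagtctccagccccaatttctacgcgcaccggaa
RPS26, chr12:56041888-56041937, plus strand: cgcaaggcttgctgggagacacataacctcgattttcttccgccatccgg

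MEOX2 itself was measured first. In SNB19 it stood at 15.0, 16.3 and 17.7 CPM (reads per 1000000 counted reads) with the scramble siRNA and at 3.44, 2.78 and 3.48 CPM with the MEOX2 siRNA, a log2 change of -2.41 ± 0.14 (SE; edgeR adjusted p = 1.35e-11). In U87 it had 0 reads in both empty vector libraries and 399 and 363 CPM in the MEOX2 libraries, at least 1699-fold above the level of 3 reads in a control library. MEOX2 thus moved as the sample titles say in both lines. The U87 groups were taken from the titles, since the treatment labels there give a different gene name for each sample. The mesenchymal glioma genes VIM (vimentin) and CD44 were expressed in all 10 libraries, at 420 to 3545 CPM and 131 to 746 CPM. The astroglial marker GFAP stood at 1.08 to 4.81 CPM and S100B at or near 0. The immune markers PTPRC and CD68 did not exceed 0.255 CPM, while the epithelial keratin KRT18 stood at 79.8 to 92.3 CPM in SNB19 and at most 0.239 CPM in U87.

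The libraries held 12533775 to 16560324 counted reads, and the ribosomal protein genes took 4.55% to 7.44% of them in 9 libraries. In SNB19 the share was 6.46%, 6.67% and 6.39% with the scramble siRNA and 7.44%, 6.81% and 6.81% with the MEOX2 siRNA. In U87 it was 14.7% and 4.94% with the empty vector and 4.55% and 5.24% with MEOX2. The first empty vector library thus stood apart from its partner and from every other library, and the counts and medians over the members in U87 are given with and without it.

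**Figure D1:**
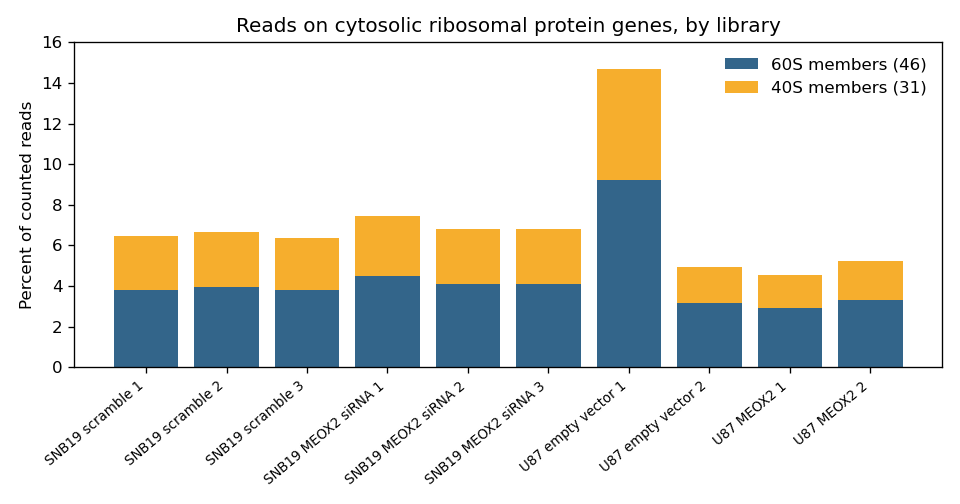
Percent of all counted reads on the 46 60S and 31 40S members, stacked, in each of the 10 libraries. Empty vector 1 of U87 reaches 14.7%, and the other 9 lie between 4.55% and 7.44%.

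Most members were among the abundant transcripts of both lines. On the deposited length-scaled unit (FPKM, CPM per kilobase of exon), 66 of the 77 had a mean over the 10 libraries of at least 90, and the median member stood at 260 FPKM. RPS12, a protein of the beak of the small subunit, had the highest mean at 1379 FPKM, followed by RPL8 (1082), RPS2 (1057), RPS21 (949) and RPL13A (838). This order rests on empty vector 1, without which RPS2 stood at 1015 and RPS12 at 1009 FPKM. By line, RPS2 was the highest member in all 6 SNB19 libraries (1118 to 1291 FPKM, against 761 to 862 for RPS12), and RPS12 was the highest in all 4 U87 libraries (1230 to 4706 FPKM, against 611 to 1437 for RPS2). RPLP0, the base of the stalk that recruits elongation factors, took the most reads in 9 libraries, and RPL8 did so in empty vector 1.

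The lowest means were those of RPL17 (0.537 FPKM), RPS10 (0.769), RPL36A (1.82) and RPS15A (4.84). Of the 8 members under 10 FPKM, 6 have at least 40% of their principal transcript inside another annotated gene on the same strand, a position held by 0 of the other 69. Such genes are RPL17-C18orf32, which covers 91.0% of the RPL17 transcript, RPL36A-HNRNPH2, which covers 77.6% of RPL36A, and RPS10-NUDT3, which covers 74.1% of RPS10. The remaining low members were RPL22 at 9.82 FPKM and RPS23 at 6.69 FPKM. Reads that fall on overlapping genes or on near copies can be lost or shifted in counting, so the levels and changes of RPL17, RPS10, RPL36A, RPS15A and RPL26 are uncertain. For 14 members most 100-base stretches also occur in other transcripts (50% or more), among them RPSA, RPL9 and RPS26.

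Between the empty vector libraries of U87 the ribosomal protein genes differed more than between any other pair of replicates. RPLP2, a stalk protein, stood at 3021 CPM in empty vector 1 and 559.5 CPM in empty vector 2. RPS6, the 40S protein phosphorylated by S6 kinases, stood at 1290 and 547.6 CPM. RPL36A went the other way, at 1.61 and 4.34 CPM. On the log2(CPM + 1) scale the median member was 1.49 higher in empty vector 1 (2.82-fold), 75 of the 77 were higher there, and 66 (85.7%) were more than 1 log2 unit higher. Over all 11332 genes with a mean of at least 5 CPM the median was -0.44, and 8.30% were more than 1 log2 unit higher. The largest gaps were those of RPLP2 (2.43), RPL36 (2.25), RPL28 (2.11), RPL38 (2.07) and RPS28 (2.05). The MEOX2 libraries of U87 differed by a median of -0.20, and no pair of SNB19 replicates by more than 0.12 in either direction.

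Ribosomal protein genes are short, and the gap moved with length. Their median coding length was 456 bases, against 1431 bases for 10830 protein-coding genes at the same expression floor. Among other genes the median difference between empty vector 1 and 2 was 0.67 for coding lengths under 500 bases, 0.02 for 500 to 1000, -0.44 for 1000 to 2000 and -1.11 for longer ones. The members in the first 3 classes stood at 1.74 (47 genes), 1.34 (28) and 1.06 (RPL3 and RPL4), above the medians of other genes of their class and lower in the longer classes. Genes of the mitochondrial ribosome, another set of small proteins, had a median of 0.87 and proteasome subunits 0.78. Translation factors whose mRNAs carry a TOP tract went both ways, from -2.32 to 1.62 with a median of 0.14, and of the 19 there were 7 above 1 and 2 below -1. EEF1A1, the elongation factor that delivers tRNA, stood at 4611 and 4699 CPM, EEF2, which moves the ribosome along the mRNA, at 1677 and 3415 CPM, and RACK1, a scaffold protein on the 40S subunit, at 1549 and 765 CPM. The mean coding length over all reads on other genes, weighted by reads, was 1477 bases in empty vector 1 and 1966 to 2166 bases in the other 9 libraries. Whether length, RNA quality or the cells gave the gap was not tested.

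**Figure D2:**
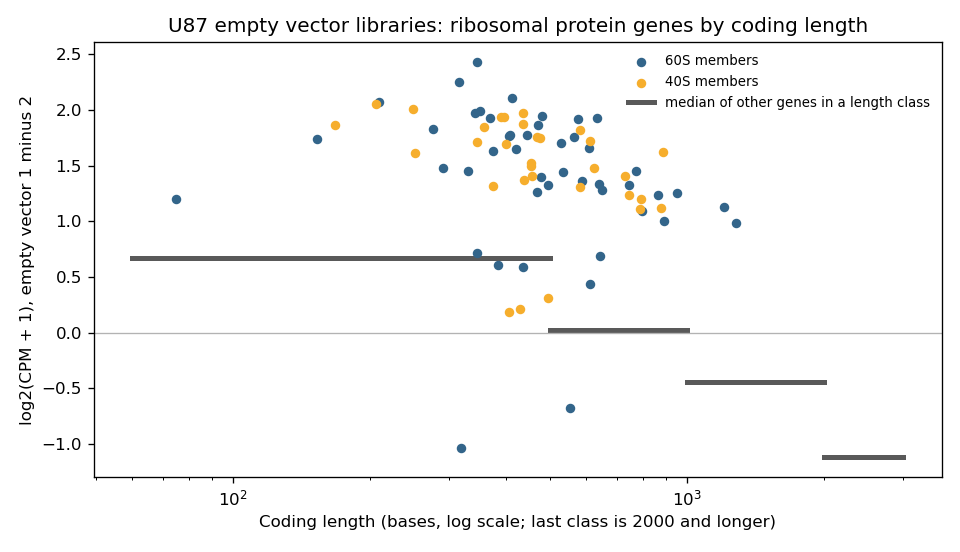
Difference in log2(CPM + 1) between the U87 empty vector libraries (1 minus 2) against coding length in bases on a log axis, 1 point per member. Bars give the median of other genes with at least 5 CPM in each length class. They fall from 0.67 to -1.11, and 75 of 77 members lie above 0.

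The first comparison asked how ribosomal protein mRNAs responded to loss of MEOX2 in SNB19. Small changes went both ways: 25 members were higher and 7 lower (edgeR adjusted p under 0.05, 77 tested), against 27.4% and 28.5% of all 15525 genes tested. The 25 higher members rose by 0.13 to 0.43 on the log2 scale (1.09- to 1.35-fold), and 19 of them belong to the 60S subunit. The median member changed by 0.06, against 0.01 for all genes. RPS23, which sits at the decoding center of the 40S subunit, changed most.

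RPS23 stood at 38.9, 40.2 and 40.1 CPM with the scramble siRNA and at 17.5, 16.4 and 20.4 CPM with the MEOX2 siRNA. The groups were far apart, and the log2 change was -1.21 ± 0.09 (SE; edgeR adjusted p = 2.71e-10). RPS23 is one of the 8 members under 10 FPKM, and why its count is low was not tested. RPL11, which forms a complex with RPL5 and 5S rRNA that can bind MDM2, stood at 798, 838 and 782 CPM and then at 1176, 1079 and 1174 CPM. It was higher in all 3 knockdown libraries, by 0.43 ± 0.05 (edgeR adjusted p = 2.79e-07). Its partner RPL5 stood at 1093, 1095 and 1113 CPM and then at 1241, 1199 and 1174 CPM, a change of 0.06 ± 0.04 (edgeR adjusted p = 0.295). The groups did not overlap for RPL5 in CPM, but its change after normalisation did not pass the test.

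RPL9 rose by 0.27 ± 0.04, RPS9 by 0.24 ± 0.05 and RPL6 by 0.22 ± 0.05, each with separate groups. RPL9 is among the 14 members for which most 100-base stretches also occur in other transcripts. RPL36A (0.42), RPS15A (0.34) and RPL26 (0.26), whose counts are uncertain, rose too. Of the lower members other than RPS23, RPS26 (-0.30) and RPS27 (-0.19) had the largest changes and were named after their values were seen. RPS26 sits at the mRNA exit channel, and its groups overlapped in CPM, at 215 to 229 and 164 to 220.

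Several central members did not pass the test with all libraries. RPLP0 stood at 3139, 3190 and 3090 CPM and then at 3494, 3141 and 3145 CPM (log2 change -0.02 ± 0.05). RPSA, the laminin receptor precursor of the 40S subunit, changed by -0.02 ± 0.05 and RPS6 by -0.02 ± 0.05. RPS4X changed by 0.06 ± 0.05 and RPS27A, made as a fusion with ubiquitin, by 0.06 ± 0.05. RPL41, the shortest member with 25 codons, changed by -0.15 ± 0.07 (edgeR adjusted p = 0.0628), RPS19 by -0.12 ± 0.06 (edgeR adjusted p = 0.0687) and RPL22 by -0.10 ± 0.07. RPL3, near the peptidyl transferase center, rose by 0.15 ± 0.05 (edgeR adjusted p = 0.00936). Without MEOX2 siRNA replicate 1 several of these were called lower: RPL41 by -0.27 (edgeR adjusted p = 3.95e-08), RPS19 by -0.21, RPL22 by -0.18, RPLP0 by -0.08 and RPSA by -0.08. RPS6, RPS4X and RPS27A did not pass the test there either.

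The summed share of reads was 6.50% ± 0.14 (SD, n = 3) with the scramble siRNA and 7.02% ± 0.36 (n = 3) with the MEOX2 siRNA. All 3 knockdown libraries lay above all controls, and the two-sided exact permutation p was 0.1, the smallest that 3 against 3 libraries allow. The difference of 0.519 percentage points fell to 0.308 without MEOX2 siRNA replicate 1 (exact permutation p = 0.2, where 0.1 is the smallest), and the exact permutation p was 0.3 without scramble replicate 1 or 3. The ratio of 60S to 40S reads was 1.446 ± 0.007 and 1.508 ± 0.007, also without overlap (exact permutation p = 0.1). In bulk RNA, fewer cells of a kind and less RNA per cell cannot be told apart.

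**Figure D3:**
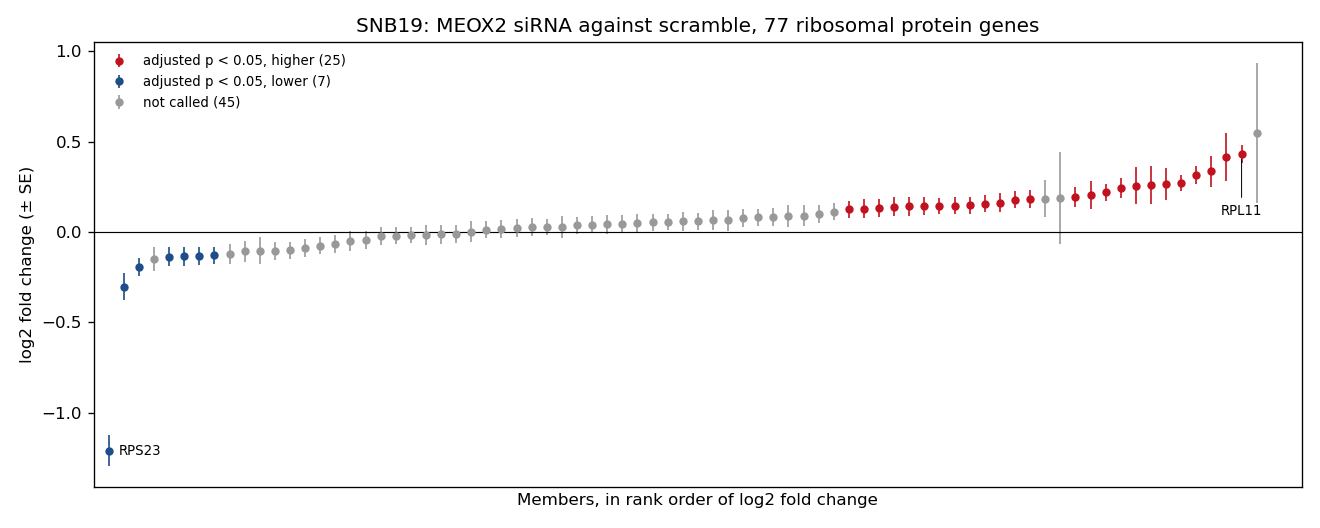
log2 change of each of the 77 members with the MEOX2 siRNA against scramble in SNB19 (points, bars ± SE), in rank order. RPS23 stands alone at -1.21, and RPL11 is the highest called member at 0.43, and both are marked.

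Marker genes moved with the siRNA as well. Of 7 glioma and astroglial markers 6 passed the filter on low counts, and of these 5 were lower and 1 higher with the MEOX2 siRNA (edgeR, adjusted p below 0.05). Of 7 markers of other cells 4 passed, and of these 3 were lower and 1 was not called. The background was 27.4% higher and 28.5% lower of 15525 genes. The endothelial gene PECAM1 stood at 31.9, 31.9 and 35.6 CPM in the scramble libraries and at 6.62, 4.52 and 5.82 CPM in the MEOX2 siRNA libraries. Their part in the ribosomal protein changes was not tested.

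The count of called members moved when single libraries were left out. Without MEOX2 siRNA replicate 1, which had the highest share of ribosomal protein reads of the SNB19 libraries and a mean coding length of 2040 bases against 2116 to 2146, 23 members were higher and 22 lower, with a median of 0.00 (background 27.9% and 29.2% of 15942 genes). All 7 members called lower with all libraries and 22 of the 25 called higher were called again. Without scramble replicate 1 the counts were 11 and 3 (background 23.1% and 24.7%) and without scramble replicate 3 they were 10 and 6 (23.7% and 25.7%). Leaving out scramble replicate 2 gave 22 and 3 (23.7% and 25.7%). Leaving out MEOX2 siRNA replicate 2 or 3 gave 24 and 3, where the background was 24.1% and 25.3% for replicate 2 and 24.8% and 25.6% for replicate 3. In 1 fit of all 10 libraries, which also took in the wide spread of the empty vector libraries, 0 were higher and RPS23 alone was lower (edgeR; background 6.99% and 8.75%). At an unadjusted p under 0.05 there was 1 member, also lower (background 14.0% higher and 16.1% lower).

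The second comparison asked the same of added MEOX2 in U87. With both control libraries no member passed the test, as was the case for 0 of 14180 genes in either direction (0 and 0 percent). The median member stood at -1.35 on the log2 scale, with 2 members above 0. At an unadjusted p under 0.05 there were 2 members, both lower, against 7.99% of all genes higher and 10.7% lower. DESeq2 called 0 higher and 4 lower (background 2.25% and 4.22% of genes with an adjusted p), and limma called none (0.0379% and 0 percent). The members with an unadjusted p under 0.05 were RPS24 and RPL4. RPLP0 stood at 6147 and 2576 CPM with the empty vector and at 2319 and 2645 CPM with MEOX2, so the MEOX2 libraries fell on both sides of empty vector 2.

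Against empty vector 2 alone, 6 members were higher and 10 lower (edgeR adjusted p under 0.05), below the 23.3% and 24.2% of all 14875 genes, and the median was 0.02. The lone control was assumed to vary like the MEOX2 libraries. RPL4, which lines the exit tunnel, stood at 1210 CPM in empty vector 2 and at 681 and 746 CPM with MEOX2, a change of -0.77 ± 0.11 (edgeR adjusted p = 1.01e-11). RPS24, one of the members mutated in Diamond-Blackfan anemia, stood at 545 CPM and then at 307 and 355 CPM, a change of -0.73 ± 0.11 (edgeR adjusted p = 7.48e-11). RPL11 stood at 635 CPM and then at 435 and 504 CPM, a change of -0.44 ± 0.11 (edgeR adjusted p = 0.000162). All 3 were also above the MEOX2 libraries in empty vector 1, at 2390, 1769 and 1728 CPM.

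The other lower members, named after their values were seen, were RPL18 (-0.58), RPS7 (-0.41), RPS14 (-0.33), RPL15 (-0.32), RPS18 (-0.32), RPL14 (-0.29) and RPS28 (-0.25). The higher ones were RPL24 (0.41), RPS12 (0.31), RPS25 (0.30), RPL37 (0.29), RPL13A (0.29) and RPLP1 (0.26). RPL24 stood at 436 CPM in empty vector 2 and at 538 and 631 CPM with MEOX2, but at 1588 CPM in empty vector 1. Each of these 6 was higher in empty vector 1 than in both MEOX2 libraries. RPSA (0.09 ± 0.11), RPS6 (-0.21 ± 0.11), RPS19 (0.21 ± 0.11), RPS27A (0.09 ± 0.11), RPL3 (-0.22 ± 0.11) and RPL5 (0.25 ± 0.11) did not pass the test against empty vector 2.

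Against empty vector 1 alone, 74 members were lower and RPL36A was higher, with a median of -2.01 (background 35.2% lower and 36.0% higher of 14912 genes). The summed share of reads was 9.83% ± 6.91 (SD, n = 2) with the empty vector and 4.89% ± 0.49 (n = 2) with MEOX2, with a two-sided exact permutation p of 0.667, where 2 against 2 libraries cannot go under 0.3333. The direction and number of calls in U87 thus differed with the control library used.

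Marker genes differed in U87 as well. Against empty vector 2 alone, 1 of 5 tested glioma and astroglial markers was higher with MEOX2 and 2 were lower, and of 3 tested markers of other cells 1 was higher and 1 lower. NES, the neural progenitor filament nestin, stood at 16.9 and 13.9 CPM with the empty vector and at 1.04 and 1.23 CPM with MEOX2. VIM stood at 3545 and 1241 CPM and then at 605 and 613 CPM. OLIG2, a factor of the oligodendrocyte lineage, stood at 5.38 and 4.69 CPM and then at 21.8 and 19.9 CPM, and the myelin gene MBP at 1.05 and 2.21 CPM and then at 9.65 and 10.2 CPM. None of these groups overlapped, and their part in the ribosomal protein values was not tested.

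**Figure D4:**
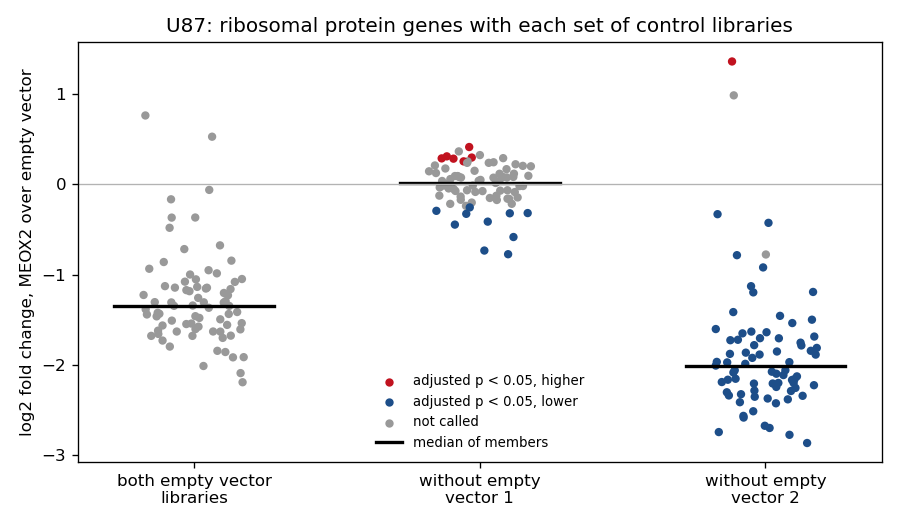
log2 change of the 77 members with MEOX2 in U87 against both empty vector libraries, against empty vector 2 alone and against empty vector 1 alone. Lines mark medians of -1.35, 0.02 and -2.01.

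The control libraries of the lines were compared next, which gives the level of each member in SNB19 relative to U87. Line, delivery agent and any batch cannot be told apart in this comparison. With both U87 controls 0 members were higher and 3 lower in SNB19 (edgeR), where 21.4% and 20.0% of all 16158 genes were. At an unadjusted p under 0.05 there were 1 higher and 25 lower (background 26.1% and 25.8%). DESeq2 called 0 higher and 31 lower (17.7% and 17.4% of genes with an adjusted p), and limma on log2(FPKM + 1) called 2 higher and 0 lower (24.5% and 10.6%). The 3 called members were RPS12 (-2.47 ± 0.66, edgeR adjusted p = 0.0338), RPL8 (-1.94 ± 0.55) and RPL23A (-1.73 ± 0.50). None of the 3 was called when any scramble library was left out.

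Those 3 were lower against either control library. RPS12 stood at 593, 584 and 599.9 CPM in SNB19, at 3609 CPM in empty vector 1 and at 943 CPM in empty vector 2. RPL8, near the peptidyl transferase center, stood at 1608, 1662 and 1506 CPM, against 6329 and 2311 CPM. RPL23A, at the rim of the exit tunnel, stood at 23.6, 29.01 and 26.2 CPM, against 88.2 and 36.2 CPM.

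Against empty vector 2 alone, 41 members were higher and 22 lower in SNB19 (background 36.3% and 34.5% of 16833 genes), with a median of 0.15. The spread in this fit came from the 3 scramble libraries, and the lone U87 library was assumed to vary like them, while the empty vector libraries differed from each other by a median of 1.49 over the members on the log2(CPM + 1) scale. The SE and p-values below do not include that difference. RPS6 stood at 1454, 1497 and 1477 CPM in SNB19 and at 548 CPM in empty vector 2, a difference of 1.28 ± 0.05 (edgeR adjusted p = 1.8e-29). It was 1290 CPM in empty vector 1, where its difference turned to -0.38. RPL5 stood at 1093, 1095 and 1113 CPM against 418 CPM, a difference of 1.24 ± 0.05, and at 842 CPM in empty vector 1. RPL13A differed by 1.00 ± 0.05, RPS2 by 0.74 ± 0.05, RPS4X by 0.71 ± 0.05, RPS19 by 0.61 ± 0.04 and RPSA by 0.34 ± 0.04. Against empty vector 1 alone, 71 members were lower and RPL36A was higher (background 36.7% lower and 42.7% higher of 17167 genes). RPL5 and RPS6 lay above both controls in CPM, RPL36A too, while RPL13A and RPSA lay between them.

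**Figure D5:**
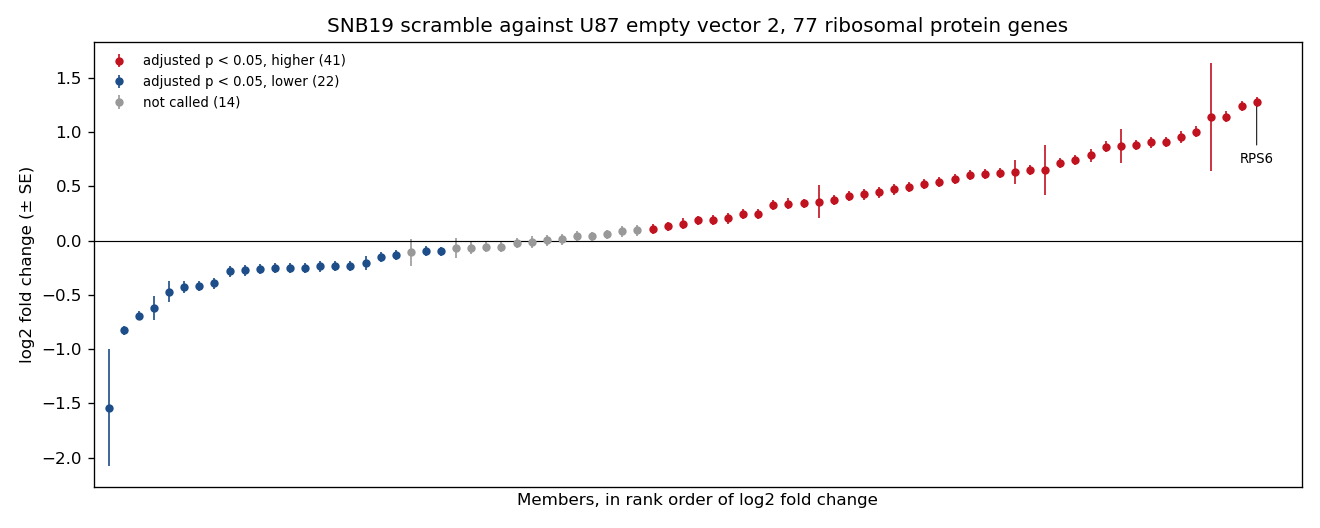
log2 difference of the 77 members between SNB19 scramble (n = 3) and U87 empty vector 2 (points, bars ± SE), in rank order. RPS6, marked, is highest at 1.28, and 41 members are called higher and 22 lower.

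The balance of the subunits differed between the lines in every library. The ratio of 60S to 40S reads was 1.67 and 1.76 with the empty vector and 1.76 and 1.74 with MEOX2 in U87, and 1.44 to 1.52 in the 6 SNB19 libraries. For the control libraries the means were 1.446 ± 0.007 (SD, n = 3) in SNB19 and 1.72 ± 0.06 (n = 2) in U87, with a two-sided exact permutation p of 0.1, the smallest possible. Without empty vector 1 the ratios were 1.446 and 1.76, and the exact permutation p was 0.25, the smallest that 3 libraries against 1 allow. The ribosomal protein paralog RPL39L, a testis-enriched copy of RPL39, had 0 to 0.121 CPM in SNB19 and 99.2, 29.2, 21.6 and 28.4 CPM in the U87 libraries, at least 98.9-fold above the level of 3 reads in any SNB19 library.

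The MEOX2 contrasts of the lines were then set against each other in 1 fit, both coded as more MEOX2 minus less, so that a positive difference means a more positive change in U87. RPL36A was higher (1.17 ± 0.37), and RPS24 (-2.13 ± 0.66), RPL4 (-1.64 ± 0.47) and RPS23 (-1.27 ± 0.27) were lower, against 10.2% and 14.2% of 17312 genes. RPS23 fell with less MEOX2 in SNB19, and in U87 it stood at 26.8 and 23.0 CPM with the empty vector and at 29.4 and 28.7 CPM with MEOX2. Its difference was called in each of the 8 fits that left out an SNB19 library or a MEOX2 library. RPS24 (edgeR adjusted p = 0.0803 to 0.150), RPL4 (0.0619 to 0.121) and RPL36A (0.0609 to 0.140) were called in 0 of those 8, with differences of like size. Without empty vector 1, 15 members were higher and 7 lower (background 21.3% and 21.8% of 18318 genes), and the same 4 were among them. RPL11 was not called in either fit, and its change with more MEOX2 was negative in both lines, in U87 at -1.70 with both empty vector libraries and -0.44 without empty vector 1.

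Other genes of translation were read from lists. In SNB19, 28 of 50 ribosome biogenesis genes were higher with the MEOX2 siRNA and 7 lower, with a median of 0.22. NOLC1, a nucleolar phosphoprotein, rose by 1.16, POLR1B, a subunit of RNA polymerase I, by 0.80 and the helicase DDX21 by 0.77. Translation factors with TOP mRNAs had 13 higher and 3 lower of 19, with EIF3F (0.78) and EIF4B (0.52) higher and EIF4A2 (-0.52) lower. Of 15 tested regulators of growth and TOP mRNAs, 6 were higher and 2 lower. MYC changed by 1.35, EIF4EBP1, a repressor of cap-dependent translation, by 0.63 and LARP1, which binds TOP mRNAs, by 0.31. The background of 27.4% higher and 28.5% lower applies to these counts.

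Genes of the mitochondrial ribosome had 31 higher and 14 lower of 78, with MRPL24 (0.71) and MRPL10 (0.64) up and MRPL20 (-0.63) down. Proteasome subunits had 9 higher and 1 lower of 31, led by PSMD4, PSMD14 and PSMD8 (0.27, 0.27 and 0.26). The background of 27.4% higher and 28.5% lower of 15525 genes applies to every list in this paragraph. Without MEOX2 siRNA replicate 1 the proteasome counts were 8 higher and 7 lower (background 27.9% and 29.2% of 15942 genes). Chaperones and importers of ribosomal proteins had 6 higher and 5 lower of 13, with NAP1L1 (0.38) and IPO7 (0.40) up and IPO9 (-0.35) down. Of 64 tested ribosomal protein pseudogenes, 13 were higher and 1 lower, and these reads may come from the parent genes. Among 6 tested paralogs 3 were higher and 1 lower. RPL26L1 stood at 16.2, 16.04 and 19.1 CPM and then at 40.6, 37.7 and 41.4 CPM, a rise of 1.15 ± 0.09 (edgeR adjusted p = 7.78e-10). RPS27L, a p53-responsive copy of RPS27, stood at 106, 107 and 115 CPM and then at 74.0, 64.0 and 71.3 CPM, a change of -0.72 ± 0.06. RPL7L1 rose by 0.26 ± 0.05. FAU, which encodes a 40S protein fused to a ubiquitin-like domain and lies outside the symbol rule, rose by 0.23 ± 0.07.

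In U87 none of these lists had a called gene against both empty vector libraries. Against empty vector 2 alone, 30 of 50 biogenesis genes were higher and 3 lower, with a median of 0.43, while the median over the members was 0.02 and 23.3% and 24.2% of all 14875 genes were called. Translation factors had 7 higher and 3 lower of 19, mitochondrial ribosomal genes 20 and 10 of 78, proteasome subunits 11 and 7 of 31, growth regulators 8 and 2 of 15, and ribosomal protein chaperones 3 and 3 of 13. The summed share of reads on the biogenesis genes was 0.541% and 0.495% with the empty vector and 0.634% and 0.652% with MEOX2, so that here empty vector 1 did not stand apart.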

How the data were processed

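Total RNA of 10 libraries was sequenced as 150 bp pairs. Per the labels, the authors used HISAT2, HTSeq 0.11.2 and DESeq2 1.26.0 on GRCh38. The deposited table gives raw read counts per gene and FPKM. The length implied by the deposited FPKM, the count and the table total, rounded to whole bases, equalled the summed exon length of GENCODE v29 for 77 of 77 members. Over all genes a library's implied length differed from the gene's median by a relative 3.29e-07 at most. The members and gene lists were chosen with earlier results of these data known. Counts were fitted with edgeR 4.0.16 in R 4.3.3 (TMM, filterByExpr, quasi-likelihood F test) on all genes, separately for each comparison, with Benjamini-Hochberg adjustment over all genes tested and calls at adjusted p under 0.05. The scripts were tested on simulated data without an outlying library, so that test does not cover the spread of the U87 empty vector libraries. DESeq2 1.42.0, limma 3.58.1 on log2(FPKM + 1), other normalisations, a length offset, a replicate block and leaving out each library were alternatives. log2(CPM + 1) was used between replicates. Named members were, in each comparison, up to 10 called members with the largest change whose groups did not overlap in CPM, 11 fixed members, the 5 highest and 5 lowest by FPKM and the 5 with the largest gap between empty vector 1 and 2. Some genes that this rule names are not reported here. Of the other lists the 3 genes with the smallest p were named. Strand of the counting is not given in the sources used here.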

Additional observations from a re-analysis of the deposited data

Results flagged for a closer look

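The test of the difference between the MEOX2 contrasts of U87 and SNB19 passed for MEOX2 and for 4 members. For RPS24 the difference was -2.13 (edgeR adjusted p = 0.0428), and for RPL4 it was -1.64 (edgeR adjusted p = 0.0317). For RPS23, whose low count was not explained, it was -1.27 (edgeR adjusted p = 0.00957). For RPL36A, whose counts are uncertain, it was 1.17 (edgeR adjusted p = 0.0464). Without empty vector 1 the values were -0.64 for RPS24, -0.71 for RPL4, -0.85 for RPS23 and 0.82 for RPL36A. When any 1 SNB19 or MEOX2 library was left out RPS23 was called in 8 of 8 fits and RPS24, RPL4 and RPL36A in 0 of 8 (edgeR adjusted p up to 0.150, 0.121 and 0.140). The MEOX2 difference was 13.1 (edgeR adjusted p = 3.23e-06), a fitted value that depends on the prior count since both empty vector libraries hold 0 reads. Apart from the marker lists, the same test passed for 8 of the genes named from other lists (edgeR, adjusted p under 0.05). Those 8 were named for a small p in the SNB19 comparison, whose libraries are part of this difference. Their passing is therefore not separate evidence. Of all 17312 genes 10.2% were higher and 14.2% lower. Among the paralogs RPL7L1 differed by 0.78 and RPS27L by -2.15. Among growth and biogenesis genes MYC differed by 2.88, NOLC1 by 1.37, POLR1B by 1.60 and DDX21 by 2.10. PSMD14 differed by 0.91 and MRPL10 by 0.72. Of 6 tested glioma and astroglial markers 1 was higher and 4 were lower. Of 5 tested markers of other cells 1 was higher and 2 were lower. Without empty vector 1 the values were 0.69 for RPL7L1, -1.07 for RPS27L, 2.73 for MYC, 1.24 for NOLC1, 1.27 for POLR1B, 1.56 for DDX21, 1.16 for PSMD14, 1.00 for MRPL10 and 13.2 for MEOX2, and each passed the test (edgeR, adjusted p under 0.05). With groups of 2 and 3 libraries no test for a single outlying library applied.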

How the results depend on the processing

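In SNB19 the 25 higher and 7 lower members became 45 and 3 with library totals alone, 31 and 2 by limma with either pseudocount, 25 and 12 with a length offset (13 lower with the replicate block as well), and 39 and 4 with a coding length offset, an alternative chosen after seeing the data. In 1 fit of all libraries they were 0 and 1, and 0 and 1 with p under 0.05 and a log2 change over 1. Over all 15525 genes the counts were 4261 higher and 4422 lower in the main fit, and 5173 and 3695 with library totals alone. By limma with a pseudocount of 1 they were 4643 and 3237 of 14745 genes. They were 4479 and 4458 with the length offset and 4775 and 4158 with the coding length offset. In 1 fit they were 1210 and 1515 of 17312. With p under 0.05 and a log2 change over 1 they were 866 and 803. The members' median of 0.06 moved to 0.13 with library totals alone and by limma and to 0.10 with the coding length offset. The median of all genes moved from 0.01 to 0.08 with library totals alone and 0.04 with the coding length offset. By limma it was 0.07 with a pseudocount of 1 and 0.08 with 0.1. RPS12 and RPS21, not called in the main fit of SNB19, stood at -0.16 and -0.13 with the length offset. With the replicate block added they stood at -0.16 and -0.13. In U87 the 0 lower members became 2 with p under 0.05 and a log2 change over 1, where 1282 of 14180 genes were lower. They became 36 without the low-count filter (1252 of 27450 genes lower), 4 by DESeq2 (597 of 14145) and 18 in 1 fit (2587 of 17312). With the length offset and replicate block together there was 1 (598 of 14180). The median of -1.35 moved to -0.77 by limma, -0.75 with the coding length offset and -0.83 with the length offset and replicate block. Over all genes the median of -0.06 moved to 0.15 by limma with a pseudocount of 1, and to -0.02 and 0.02 with those offsets. Between the control libraries the 0 higher members became 1 with p under 0.05 and a log2 change over 1 (3392 of 16158 genes higher). There was also 1 with library totals alone (3904 of 16158), in 1 fit (4858 of 17312) and by limma with a pseudocount of 0.1 (3244 of 14380). There were 2 by limma with 1 (3519 of 14380) and 4 with the coding length offset (3781 of 16158). The 3 lower ones became 25 with p under 0.05 and a log2 change over 1 (2975 of 16158 genes lower). Without the filter they were also 25 (3586 of 30897). DESeq2 gave 31 (3600 of 20713) and limma 0 (1531 of 14380 with a pseudocount of 1). They were 41 in 1 fit (4985 of 17312). The replicate block gave 1 (1536 of 16158) and the length offset 10 (4039 of 16158). The median of -1.13 moved to -0.47 by limma, -0.39 with the coding length offset, -0.63 with library totals alone and -0.70 with the length offset and replicate block. Over all genes the median of 0.02 moved to 0.27 by limma with a pseudocount of 1 and to 0.37 with library totals alone. It was -0.01 with either of the other settings. For the difference between the lines the 1 higher member became 0 with library totals alone (2061 of 17312 genes higher). It also became 0 with the replicate block, without (1161 of 17312) or with the length offset (1824 of 17312). The 3 lower ones became 23 with p under 0.05 and a log2 change over 1 (2785 of 17312 genes lower). They became 61 without the filter (2975 of 34567) and 10 by DESeq2 (2797 of 19153). With the replicate block there was 1 (1659 of 17312), also with the length offset added (2051 of 17312). The median of -1.28 moved to -0.84 with library totals alone, -0.65 and -0.66 by limma and -0.63 with the coding length offset. Over all genes the median of -0.04 moved to 0.25, to 0.19 and 0.26, and to 0.03, in the same order. The cause was not tested.

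Leaving out each library in turn gave 10 to 24 higher and 3 to 22 lower members in SNB19 (median 0.0008 to 0.0908), 0 to 6 and 0 to 74 in U87 (-2.01 to 0.0187), 0 to 41 and 0 to 71 between the control libraries (-1.72 to 0.15), and 0 to 15 and 1 to 73 for the difference (-1.89 to 0.10). The difference in summed share, in percentage points, ranged from 0.308 to 0.624 in SNB19, from -9.82 to -0.0439 in U87 and from -8.21 to 1.57 between the control libraries. Over the same omissions 9 of 32 named members changed sign in SNB19, 13 of 26 in U87, 13 of 27 between the control libraries and 16 of 29 for the difference. Those called with the opposite sign had log2 changes of -0.0822 to 0.064 for RPS21 in SNB19, and in U87 -2.06 to 0.31 for RPS12 and -1.81 to 0.29 for RPL13A. Between the control libraries they were -1.54 to 0.13 for RPLP0, -1.70 to 0.34 for RPSA, -0.19 to 1.24 for RPL5, -1.67 to 0.19 for RPL11, -0.82 to 0.71 for RPS4X, -0.38 to 1.28 for RPS6, -1.78 to 0.61 for RPS19, -0.80 to 0.74 for RPS2, -2.06 to 0.38 for RPS21, -1.08 to 1.00 for RPL13A and -2.33 to 0.34 for RPL36. For the difference they were -1.13 to 0.34 for RPL5, -2.03 to 0.36 for RPS12, -1.81 to 0.31 for RPL13A, -2.55 to 0.34 for RPLP2, -2.16 to 0.41 for RPL28 and -2.26 to 0.27 for RPL38. All of these but RPS21 in SNB19 and RPL5 and RPS6 between the controls turned positive without empty vector 1.

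Deviations from the group mean correlated between same-numbered libraries at -0.08, -0.14 and 0.17 in SNB19 and at -0.44 in U87. With 2 libraries in each U87 group the deviations are equal and opposite, so crossing the numbers only reverses the sign, to 0.44. The U87 value therefore cannot show whether the numbers pair the libraries. The title of the first U87 MEOX2 library also carries the number of the second, so the U87 numbering is uncertain. With the replicate block SNB19 had 24 higher and 9 lower members, where 4194 and 4407 of 15525 genes were higher and lower. U87 had 0 and 0 with the block, with 468 of all 14180 genes called. With the numbers of U87 crossed, chosen after seeing the data, 0 members and 1152 genes were called. Depth limits the members near 1 CPM, RPL17 and RPS10.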

Other observations

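Members were grouped by chromosome after the values were seen. Against empty vector 2 alone, all 4 members on chromosome X (RPS4X, RPL10, RPL39 and RPL36A) were higher in SNB19, with a median of 0.56, as were all 3 on chromosome 5 (RPL37, RPS14 and RPS23), with a median of 0.87, all 3 on chromosome 15, with a median of 0.36, and 4 of 5 on chromosome 1, with a median of 0.24. All 4 on chromosome 8 (RPL8, RPL30, RPS20 and RPL7) were lower, with a median of -0.44. Of all 77 members 41 were higher and 22 lower, and of all genes 36.3% and 34.5%. Against empty vector 1 alone the medians were -1.12 for chromosome X, where RPL36A alone was higher, -0.997 for chromosome 5, -0.75 for chromosome 15, -1.33 for chromosome 1 and -2.23 for chromosome 8, so that the direction turned with the control library for all of these but chromosome 8. No test was run on these groups, which rest on a single U87 library.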
